A study of Mus musculus with 10 samples.

Results

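The 10 genes described here flank *Arid1b* on mouse chromosome 17: *Scaf8*, *Tiam2*, *Tfb1m* and *Cldn20* on its upstream side and *Tmem242*, *Zdhhc14*, *Snx9*, *Synj2*, *Serac1* and *Ezr* on its downstream side. They are protein-coding genes within about 2 Mb of *Arid1b* that were listed by name, and 10 of 10 were found by Ensembl identifier among the 18444 genes of the deposited table. Whole-brain mRNA was compared between 5 heterozygous (HT) and 5 wild-type (WT) male C57BL/6N mice at postnatal day 3, with 1 library per mouse. HT mice carry 1 *Arid1b* allele in which CRISPR/Cas9 nickase editing targeted exon 5, in every tissue and from a single edited line, and all pups came from HT fathers and WT C57BL/6N mothers. The study's methods give the edit as a deletion spanning exon 5 with a short insertion in its place, while other passages of the study give it as an insertion within exon 5, and reads across the exon were not analysed here. Neither group received a treatment, and the sources used here do not say which pups shared a litter, so that p-values measure the spread between these mice. In whole-brain RNA, fewer cells of a type and less RNA per cell cannot be told apart.

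A heterozygous edit made on one chromosome leaves the genes next to it on the same DNA molecule, so that flanking genes share that molecule with the edited allele while the other copy of each gene lies on an unedited chromosome. The BAF complex, to which ARID1B belongs, moves nucleosomes and is known to act at promoters and enhancers. The flanking genes themselves have varied functions. TIAM2, SNX9, SYNJ2 and EZR work at the plasma membrane, in Rac signalling, endocytosis, phosphoinositide turnover and the linkage of membrane to actin. TFB1M, SERAC1 and TMEM242 serve mitochondria. ZDHHC14 attaches palmitate to proteins, SCAF8 binds the C-terminal domain of RNA polymerase II, and CLDN20 belongs to the claudins of tight junctions.

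All positions are GRCm38, chromosome 17, from GENCODE M21. *Arid1b* spans 4994332 to 5347656 on the plus strand. The nearest of the 10 genes was *Tmem242* (5410870 to 5440259, minus strand), 63 kb beyond its end, followed by *Zdhhc14* (5492557 to 5753811, plus strand) at 145 kb. *Snx9* (5841329 to 5931954, plus strand), *Synj2* (5941280 to 6044290, plus strand) and *Serac1* (6042196 to 6079741, minus strand) lay 494, 594 and 695 kb away. *Ezr* (6738041 to 6782784, minus strand) was the most distant downstream gene, at 1390 kb. On the other side no protein-coding gene is annotated for 1298 kb before *Arid1b*. *Tfb1m* (3519256 to 3557781, minus strand), *Cldn20* (3532554 to 3533213, plus strand) and *Tiam2* (3326573 to 3531344, plus strand) ended 1437, 1461 and 1463 kb before it, and *Scaf8* (3114972 to 3198859, plus strand) 1795 kb before it. The table lists them as ENSMUSG00000046201 (*Scaf8*), ENSMUSG00000023800 (*Tiam2*), ENSMUSG00000036983 (*Tfb1m*), ENSMUSG00000091530 (*Cldn20*), ENSMUSG00000004945 (*Tmem242*), ENSMUSG00000034265 (*Zdhhc14*), ENSMUSG00000002365 (*Snx9*), ENSMUSG00000023805 (*Synj2*), ENSMUSG00000015659 (*Serac1*) and ENSMUSG00000052397 (*Ezr*).

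Several of these genes share genomic sequence. *Cldn20* lies on the opposite strand inside *Tfb1m*, with 0 bases of exon in common. *Tiam2* and *Tfb1m* run into each other on opposite strands, with 142 bases of exon in common, or 3.94% of the exon bases of *Tfb1m*. *Synj2* and *Serac1* also meet at their 3′ ends, with 297 shared exon bases, 6.49% of those of *Serac1*. The labels name a stranded library kit, but the strand setting of the quantification is not given in the sources used here, so that reads of these shared stretches may not be told apart. *Serac1* starts 45 bases from *Gtf2h5*, which is transcribed in the other direction. *Scaf8* shares 18.6% of its 31-base transcript words with transcripts of other genes, mostly with the pseudogene *Gm9077*, which is not listed in the table, while *Tmem242*, *Zdhhc14*, *Snx9* and *Cldn20* share 0%.

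The sequence targeted by the edit is exon 5 of *Arid1b* (chr17:5242828-5243071, GRCm38, plus strand), a 244-base exon present in 4 of the 4 annotated coding transcripts. Its length leaves a remainder of 1 when divided by 3, so that a transcript without it changes reading frame. It is shown as spliced, from the GENCODE M21 transcripts, with exon 5 in capitals and 28 bases of the exon on each side in lower case.

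Arid1b exon 5: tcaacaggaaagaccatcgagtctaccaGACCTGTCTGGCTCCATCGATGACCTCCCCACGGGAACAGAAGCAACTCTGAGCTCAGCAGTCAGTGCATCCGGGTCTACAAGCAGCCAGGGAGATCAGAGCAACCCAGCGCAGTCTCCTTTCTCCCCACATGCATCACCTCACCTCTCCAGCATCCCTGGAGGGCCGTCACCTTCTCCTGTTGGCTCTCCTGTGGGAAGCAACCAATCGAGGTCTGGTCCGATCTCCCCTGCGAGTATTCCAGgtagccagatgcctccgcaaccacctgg

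Start-site sequences from RefSeq (GRCm38.p6), each with 250 bases before and 50 after an annotated start, matched 8 of the 10 genes with 11 starts. *Zdhhc14* and *Snx9* had no entry. The windows of *Tfb1m* (chr17:3557706-3558005, minus strand) and of *Cldn20*, the gene nested in it (chr17:3532304-3532603, plus strand), are shown because these genes had the highest fold changes of the 10, and the window of *Serac1* (chr17:6079690-6079989, minus strand) because it also holds the start of *Gtf2h5*. CpG dinucleotides are in capitals. The annotated start of *Cldn20* falls on an ATG, and its annotated coding transcript has 660 bases. Its window may therefore lie around the start of the coding sequence and not around that of transcription.

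Tfb1m: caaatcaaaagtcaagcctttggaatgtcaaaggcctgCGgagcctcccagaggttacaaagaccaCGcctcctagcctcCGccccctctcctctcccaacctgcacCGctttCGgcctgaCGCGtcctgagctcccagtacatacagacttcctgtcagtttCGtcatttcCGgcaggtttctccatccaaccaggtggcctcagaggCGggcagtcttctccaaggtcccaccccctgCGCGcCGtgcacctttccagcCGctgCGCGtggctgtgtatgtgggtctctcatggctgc

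Cldn20: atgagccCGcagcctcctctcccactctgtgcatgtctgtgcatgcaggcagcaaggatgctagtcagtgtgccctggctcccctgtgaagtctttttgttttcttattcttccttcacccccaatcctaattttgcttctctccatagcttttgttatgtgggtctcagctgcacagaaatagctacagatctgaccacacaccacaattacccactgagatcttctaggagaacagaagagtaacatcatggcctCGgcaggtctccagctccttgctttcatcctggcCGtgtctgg

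Serac1: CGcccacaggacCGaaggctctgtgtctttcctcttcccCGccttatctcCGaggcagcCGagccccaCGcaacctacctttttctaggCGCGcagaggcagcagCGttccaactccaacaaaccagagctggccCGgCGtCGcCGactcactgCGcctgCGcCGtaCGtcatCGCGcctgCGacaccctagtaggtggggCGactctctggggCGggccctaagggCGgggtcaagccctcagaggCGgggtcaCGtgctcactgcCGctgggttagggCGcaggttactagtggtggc

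The *Cldn20* window held 3 CpG, the *Tfb1m* window 16 and the *Serac1* window 27, against a median of 7 over all 32851 windows. Those of *Scaf8* and *Ezr* held 47 and 38. Searched on both strands, TATAAA was found in 0 of the 11 windows (13.6% of all windows), CCAAT in 3, of *Cldn20*, *Scaf8* and *Tiam2* (37.4% of all), and GGGCGG in 4, of *Ezr*, *Serac1*, *Tfb1m* and *Tmem242* (35.7% of all). These matches describe the letters of the windows and are not binding sites.

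Normalised read counts summed to between 27.2 M and 29.0 M per library. The library HT 4 stood apart from the other 9. Over all genes tested, the typical distance of a value from its gene mean (median, log2) was 0.21 in HT 4 and 0.077 to 0.11 in the others, and HT 4 was the highest or the lowest library for 52.2% of the genes tested. Its deviation followed transcript length, with a median of 0.27 over genes whose longest coding transcript had at most 1238 bases and -0.34 over those with at least 6578 bases. Results are given with all libraries and, where it matters, without HT 4. As a check of tissue, 6 neuronal markers summed to between 159599 and 179916 normalised read counts per library, and 2 liver genes to at most 29.7.

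*Arid1b* itself had 2372, 2230, 2253, 1505 and 2142 normalised read counts in HT 1 to HT 5 and 3386, 3155, 3597, 3429 and 3108 in WT 1 to WT 5. Each HT library was below each WT library, and HT mice had on average 63.0% of the WT level. Expressed as a log2 fold change (HT minus WT, on the log2(value + 1) scale used throughout) the difference was -0.68 ± 0.11 (SE, n = 5 each), with an exact permutation p of 0.00794, the smallest that 5 against 5 libraries allow. The limma adjusted p was 0.390 with all libraries and 2.47e-04 without HT 4.

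None of the 10 flanking genes passed the test between HT and WT mice. In the limma fit over 17020 genes, 0 of 10 had an adjusted p under 0.05 (0% of all genes tested), and each adjusted p was 1.00. An unadjusted p under 0.05 was found for 0 of 10, where 3.41% of all genes tested had one (1.47% higher and 1.93% lower in HT). The HT and WT libraries overlapped for 10 of 10, and 0.629% of all genes tested had groups that did not overlap (0.282% higher and 0.347% lower in HT). Of the 10 genes, 6 were higher and 4 lower in HT, where 46.4% of all genes tested were higher, with log2 fold changes between -0.11 (*Tiam2*) and 0.38 (*Cldn20*) and a median of 0.023, against -0.0074 over all genes tested. The median absolute log2 fold change was 0.10 in the 10 genes and 0.061 in all genes tested.

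The 95% interval of the log2 fold change included 0 for 10 of 10 genes and lay above the *Arid1b* value of -0.68 for 10 of 10. For 9 of 10 it lay within 1.5-fold in either direction. The exception was *Cldn20*, the gene with the fewest reads, whose interval ran from -0.17 to 0.93. A difference of the size seen in *Arid1b*, in the same direction, was therefore outside the interval of each flanking gene.

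**Figure D1:**
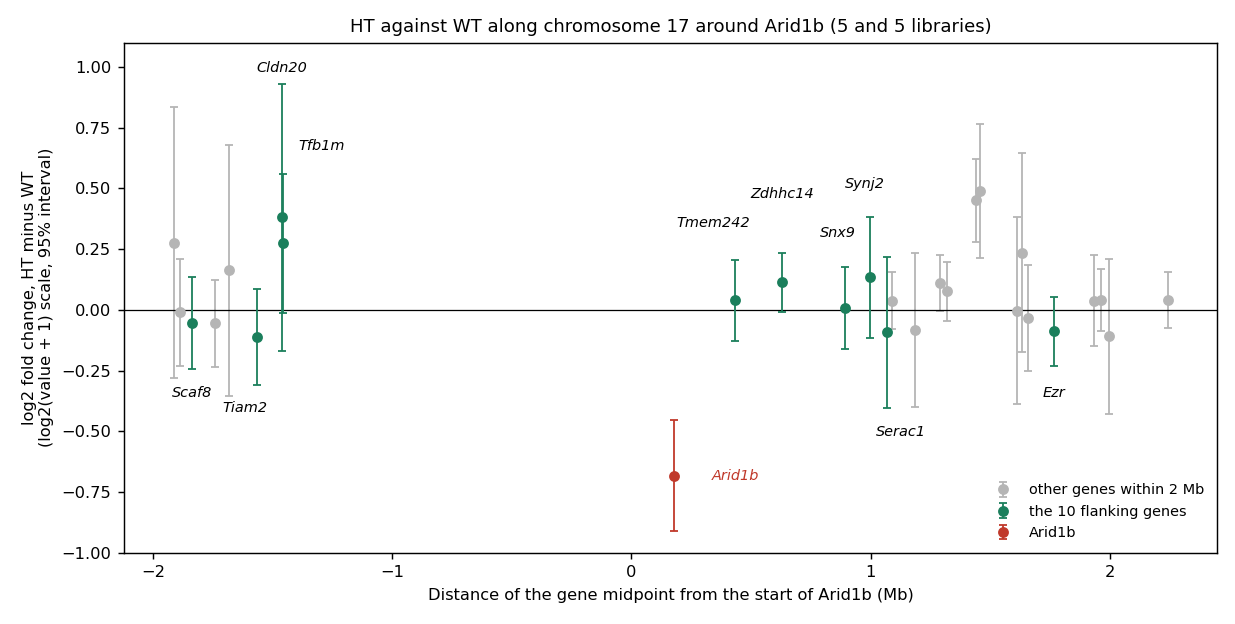
Log2 fold change (HT minus WT, log2(value + 1) scale) of the 10 flanking genes (green), *Arid1b* (red) and the other tested genes within 2 Mb (grey) against the distance of the gene midpoint from the start of *Arid1b* in Mb. Points are limma estimates with 95% intervals from 5 HT and 5 WT libraries. The green points lie between -0.11 and 0.38, and their intervals include 0, while *Arid1b* lies at -0.68.

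The genes were also read by their position relative to *Arid1b*. Of the 4 upstream genes, 2 were higher and 2 lower in HT, and of the 6 downstream genes 4 were higher and 2 lower. The nearest gene, *Tmem242*, had a log2 fold change of 0.039 ± 0.078 (SE, n = 5 each), and the most distant, *Scaf8*, of -0.055 ± 0.088. The upstream genes spanned both the lowest and the highest value of the 10. This is a description, and no trend along the chromosome was tested.

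*Zdhhc14*, a palmitoyltransferase, had the smallest standard error of the 10. Its normalised read counts were 620.6, 596.6, 604.6, 640.3 and 588.6 in HT 1 to HT 5 and 567.7, 527.4, 566.2, 588.8 and 569.5 in WT 1 to WT 5. Of the HT libraries, 4 of 5 lay above the highest WT library, and the lowest HT library fell just short of it. The means were 610 ± 20.6 and 564 ± 22.4 (SD, n = 5 each), which is a log2 fold change of 0.11 ± 0.056 (SE) with an interval from -0.0080 to 0.24. Its exact permutation p was 0.0159, the only one under 0.05 among the 10 genes, where 3.9% of all genes tested had one. In the limma fit its unadjusted p was 0.0647 and its adjusted p 1.00, so that the difference did not pass. HT 4 was the highest of the 10 libraries, and without it the log2 fold change was 0.096 (limma p 0.118, adjusted p 0.694). Over the alternative settings the adjusted p of *Zdhhc14* ranged from 0.641 to 1.00 and its log2 fold change from 0.090 to 0.13.

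*Tfb1m*, which methylates the RNA of the small mitochondrial ribosomal subunit, had 125, 125, 133, 131 and 161 normalised read counts in HT 1 to HT 5 and 127, 95.2, 111, 92.8 and 136 in WT 1 to WT 5. In HT, 5 of 5 libraries exceeded the WT median of 111, but the 2 highest WT libraries lay within the HT range. The log2 fold change was 0.27 ± 0.13 (SE, n = 5 each), with a limma p of 0.0607, an adjusted p of 1.00 and an exact permutation p of 0.0952. Leaving out 1 library moved it between 0.21 (without WT 4) and 0.35 (without WT 5). Its unadjusted p was under 0.05 in 6 of 21 alternative settings, with a lowest limma p of 0.0229 and a lowest adjusted p of 0.626.

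*Cldn20*, the claudin gene nested in *Tfb1m*, had the fewest reads of the 10. It had 13.1, 13.9, 17.7, 12.9 and 16.7 normalised read counts in HT and 16.7, 9.97, 11.4, 10.3 and 8.43 in WT. WT 1 was as high as the HT libraries, and the other 4 WT libraries were below all of them. Its log2 fold change of 0.38 ± 0.25 (SE, n = 5 each) had the widest error of the 10, with a limma p of 0.157 and an exact permutation p of 0.0714. Without WT 1 it was 0.52 (limma p 0.0641, adjusted p 0.718 or more in each setting). *Cldn20* was the only one of the 10 genes with a mean under 100 and left the comparison when that minimum was set.

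Of the other mitochondrial genes, *Tmem242*, an assembly factor of the respiratory chain and ATP synthase, had 683, 716, 737, 915 and 733 normalised read counts in HT and 772, 697, 720.2, 708 and 768 in WT. HT 4 was the highest of the 10 libraries, and of the other 4 HT libraries 3 lay within the WT range and HT 1 below it. The log2 fold change of 0.039 became -0.031 without HT 4. *Serac1*, which remodels phosphatidylglycerol, had 671, 585, 704, 380.5 and 641 in HT and 687, 582, 683, 589 and 578 in WT. Here HT 4 was the lowest of the 10 libraries, far below the others. The log2 fold change of -0.093 ± 0.14 (SE, n = 5 each) became 0.060 without HT 4. *Gtf2h5*, which starts next to *Serac1* and encodes a subunit of the general transcription factor TFIIH, averaged 2431 ± 92.9 in HT against 2369 ± 151 in WT libraries (SD, n = 5 each), and its log2 fold change was 0.038.

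Among the membrane and actin genes, *Synj2*, a phosphoinositide phosphatase, had 410.5, 434, 389, 299 and 437 normalised read counts in HT and 318, 406, 379, 379 and 307 in WT. The log2 fold change was 0.13 ± 0.12 (SE, n = 5 each), with a limma p of 0.267. HT 4 was the lowest library, and 3 of the other 4 HT libraries lay above the highest WT library. Without HT 4 the log2 fold change was 0.23, with an interval from 0.034 to 0.43, an unadjusted limma p of 0.0247 and an adjusted p of 0.534. In that fit 8.38% of all genes tested had an unadjusted p under 0.05 and 0.0118% an adjusted one, and with a trend on length and GC content removed as well, *Synj2* and *Tfb1m*, 2 of the 10 genes, reached an unadjusted p under 0.05, where 7.95% of all genes did. With all other libraries kept, leaving out WT 5 gave *Synj2* a value of 0.082. *Snx9*, a sorting nexin that assembles with dynamin during endocytosis, lies next to *Synj2*. It had 280.1 to 349.7 in HT (median 330) and 299 to 329 in WT (median 319), a log2 fold change of 0.0063 with an interval from -0.16 to 0.17.

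*Tiam2*, an activator of Rac, had 1844, 1756, 1683, 1300 and 1796 normalised read counts in HT and 1567, 1850.3, 1875, 1907 and 1803 in WT. HT 4 was the lowest of the 10 libraries, and the groups overlapped. The log2 fold change was -0.11 ± 0.091 (SE, n = 5 each), and -0.022 without HT 4. *Scaf8*, whose product binds RNA polymerase II, was likewise lowest in HT 4, with 1651 in HT 4 and 2143 to 2396 in the other HT libraries, against 2070.2 to 2406 in WT. The value was -0.055 (log2 fold change) with HT 4 and 0.032 without it.

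*Ezr* encodes ezrin, which links the plasma membrane to actin and is also made by choroid plexus epithelium. It had 1145, 1126, 1029, 1201 and 962 normalised read counts in HT and 1127, 1128, 1160, 1254 and 1129 in WT. In HT, 3 of 5 libraries lay below the lowest WT library, and HT 4 was the highest HT library. The log2 fold change was -0.089 ± 0.066 (SE, n = 5 each; limma p 0.202) and -0.12 without HT 4 (limma p 0.0596, adjusted p 0.612). Markers of the choroid plexus moved in the same direction. The summed level of 8 of them, among them *Ttr* and *Folr1*, ran from 7072 to 10021 in HT and from 10658 to 14385 in WT, 8 of 8 were lower in HT, 4 had an unadjusted limma p under 0.05 (1.93% of all genes tested had one and were lower in HT) and 0 an adjusted one, and none was at 0 in any library. Other lists also leaned lower in HT, with 0 of 5 microglial, 1 of 5 endothelial and 1 of 5 meningeal and fibroblast markers higher. Higher in HT were 4 of 5 astrocyte and radial glia, 4 of 5 ependymal, 5 of 5 erythroid and 3 of 6 neuronal markers. In each of these lists 0 had an unadjusted limma p under 0.05. The part of any of these cell types in the *Ezr* values was not tested.

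**Figure D2:**
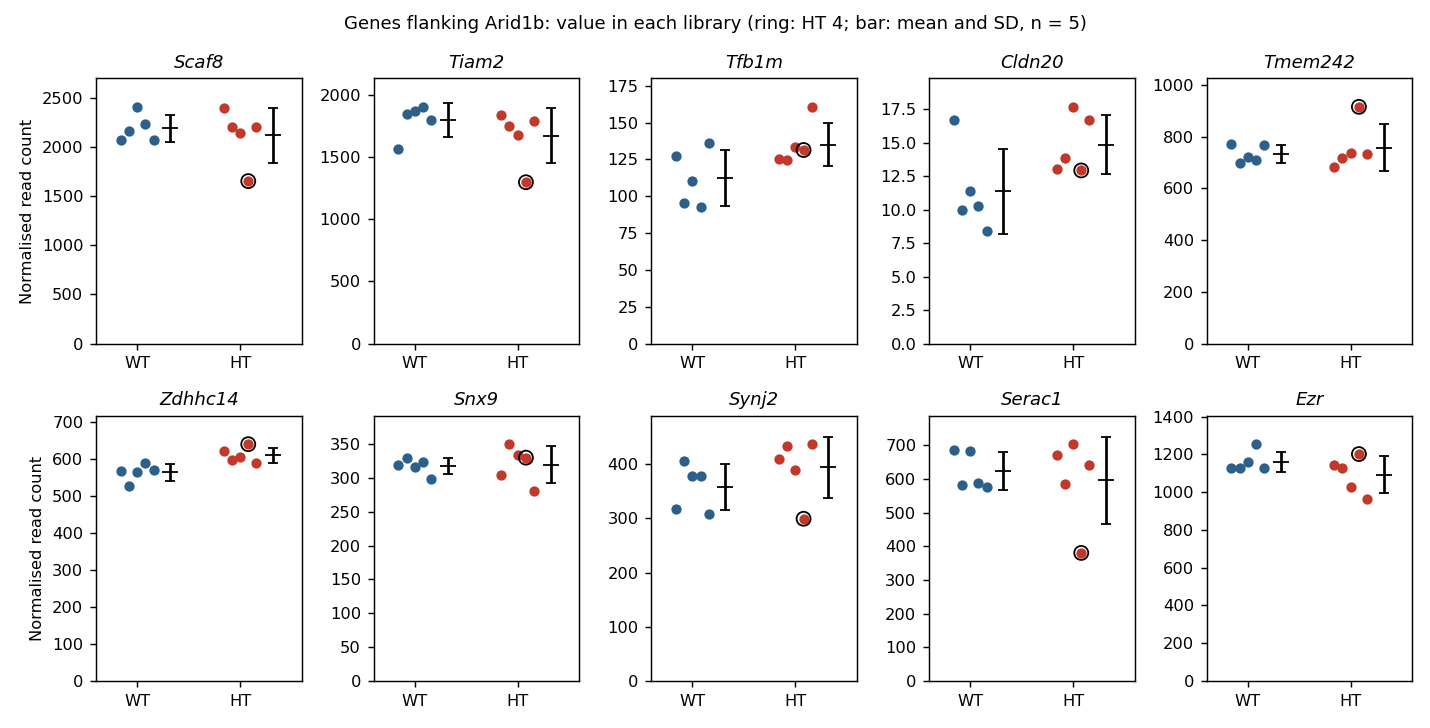
Normalised read count (y axis, from 0) of each of the 10 flanking genes in 5 WT (blue) and 5 HT (red) libraries, in order along the chromosome. Bars give mean and SD (n = 5), and a ring marks HT 4. The groups overlap in each panel. HT 4 is the lowest library for *Scaf8*, *Tiam2*, *Synj2* and *Serac1* and the highest for *Tmem242* and *Zdhhc14*.

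HT 4 stood at one end of the 10 libraries for 6 of the 10 genes, near its share of 52.2% over all genes tested. Its place differed between the longer and the shorter transcripts, but within each of these classes its deviation was not in order of length. Whether length accounts for the place of HT 4 was not tested. It was the lowest library for *Serac1* (longest coding transcript 4007 bases, deviation from the gene mean -0.66), *Scaf8* (4866 bases, -0.38), *Synj2* (5664 bases, -0.32) and *Tiam2* (6127 bases, -0.41), the 4 genes with the longest transcripts of the 10. For the other 6 genes (660 to 3331 bases) its deviation was between 0.015 and 0.30. The edited gene has a still longer transcript (11325 bases), and there the deviation of HT 4 was -0.80. That value includes the difference between the groups, since the other HT libraries were at -0.29 to -0.15 and the WT libraries at 0.24 to 0.45. When a smooth trend on transcript length and GC content was removed from each library, the log2 fold changes were -0.031 for *Scaf8*, -0.078 for *Tiam2*, 0.17 for *Synj2* and -0.076 for *Serac1*, each with an adjusted p of 1.00, and that of *Arid1b* was -0.66 (adjusted p 4.77e-05).

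**Figure D3:**
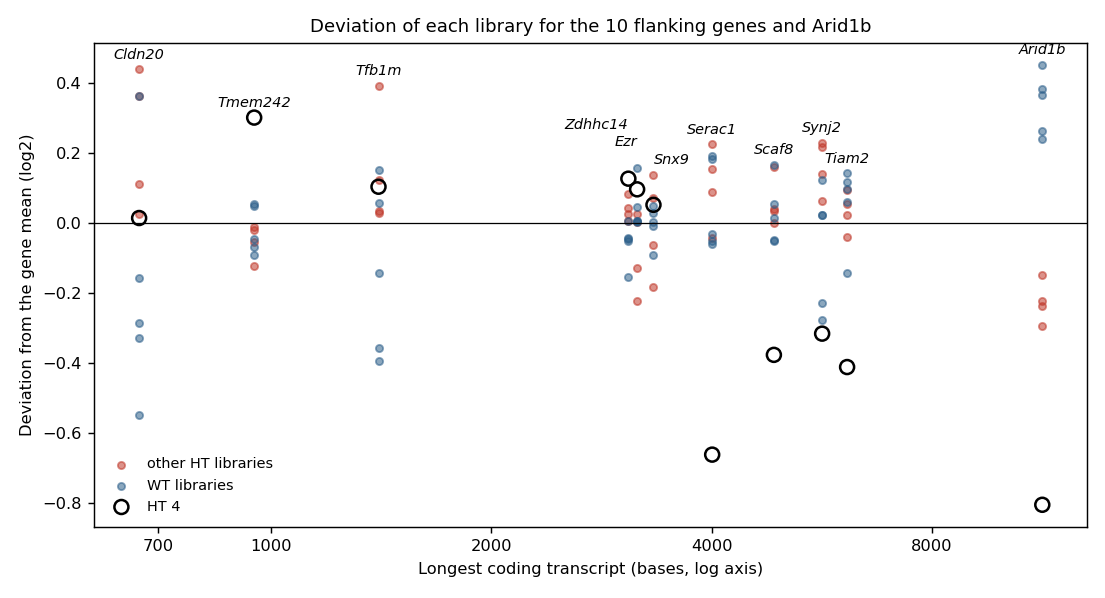
Deviation of each library from the gene mean (log2) against the length of the longest coding transcript (bases, log axis) for the 10 flanking genes and *Arid1b*. Red and blue points are HT and WT libraries, and open circles are HT 4. HT 4 lies below the other libraries for the genes of 4007 bases and more and at 0.015 to 0.30 for the shorter ones. For *Arid1b* the deviations include the difference between HT and WT.

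*Tfb1m*, *Cldn20*, *Zdhhc14* and *Synj2* were higher in HT, and *Tiam2* and *Ezr* lower, under each of the 21 alternative settings (20 for *Cldn20*). *Scaf8*, *Tmem242*, *Snx9* and *Serac1* changed sign under at least 2 settings each. No adjusted p under 0.05 was found for any of the 10 genes under any setting, the lowest being 0.534 for *Synj2* without HT 4.

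**Figure D4:**
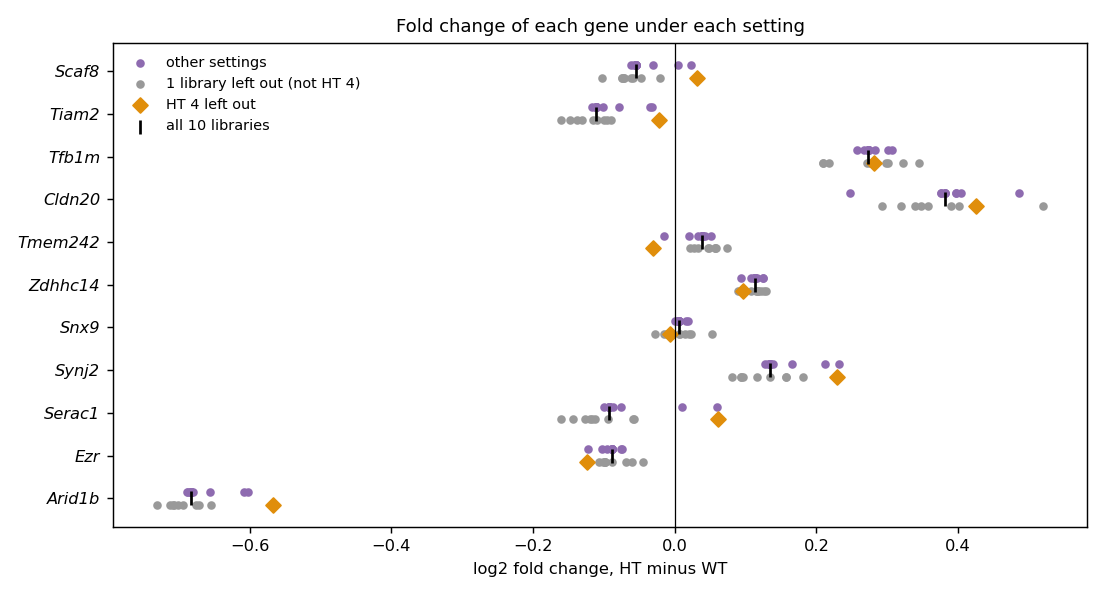
Log2 fold change (HT minus WT) of each gene with all 10 libraries (black tick), without HT 4 (orange diamond), without 1 other library (grey) and under the other settings (purple). *Scaf8*, *Tmem242*, *Snx9* and *Serac1* cross 0 when HT 4 is left out, and *Arid1b* stays between -0.73 and -0.57.

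Levels of different genes were set side by side per kilobase of the longest coding transcript. In WT mice the order was *Tmem242* (773 ± 36.4 normalised read counts per kilobase, SD, n = 5), *Scaf8* (450 ± 28.6), *Ezr* (366 ± 17.2), *Tiam2* (294 ± 22.2), *Zdhhc14* (183 ± 7.27), *Serac1* (156 ± 14.1), *Snx9* (95.3 ± 3.50), *Tfb1m* (80.1 ± 13.6), *Synj2* (63.2 ± 7.55) and *Cldn20* (17.2 ± 4.82). The WT ranges of neighbours overlapped between *Zdhhc14* and *Serac1*, *Snx9* and *Tfb1m*, and *Tfb1m* and *Synj2*, so that these neighbours are not ordered beyond their spread. *Arid1b* (294 ± 17.9) stood level with *Tiam2* in WT and at 185 ± 30.3 in HT, level with *Zdhhc14* (198 ± 6.69). *Tmem242* exceeded 84.7% of the genes tested in level per kilobase, *Cldn20* 14.5%, and the others between 31.4% (*Synj2*) and 73.5% (*Scaf8*). With the median length of the coding transcripts in place of the longest, the WT level of *Scaf8* was 809. Its range overlapped that of *Tmem242* (892), so that these neighbours were then not ordered beyond their spread. *Synj2* (94.7) passed *Tfb1m*, but its WT range overlapped those of *Tfb1m* and *Snx9*, so that these were not ordered beyond their spread either. *Serac1* (207) passed *Zdhhc14*, with WT ranges that lay narrowly apart.

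**Figure D5:**
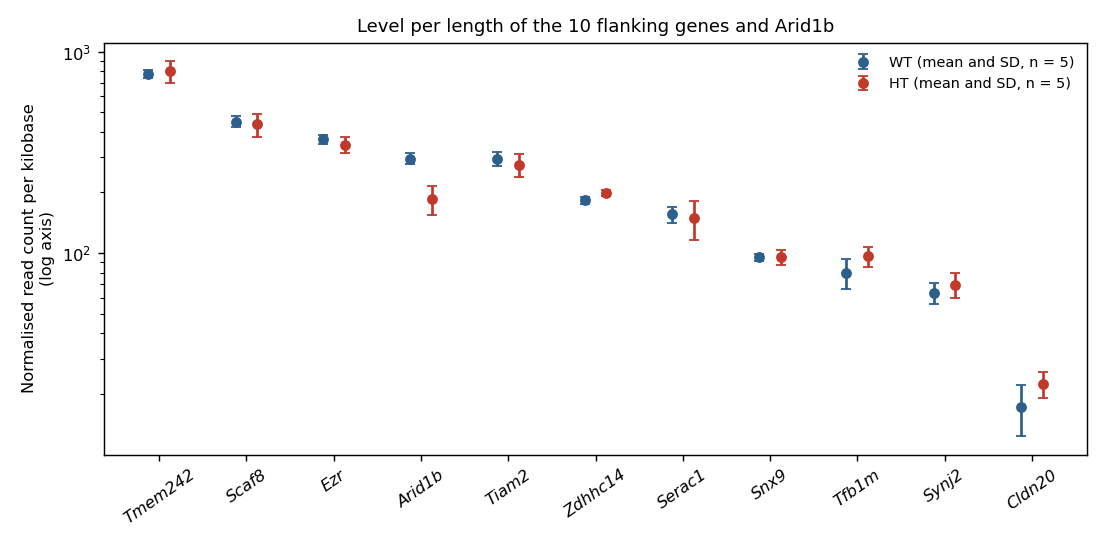
Normalised read count per kilobase of the longest coding transcript (log axis) for the 10 flanking genes and *Arid1b*, as mean and SD of 5 WT (blue) and 5 HT (red) libraries. Levels run from 773 for *Tmem242* to 17.2 for *Cldn20* in WT, and *Arid1b* stands at 294 in WT and 185 in HT.

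A further 23 genes of the table lie within the same 2 Mb on either side, and 17 of them were tested. Their median log2 fold change was 0.039, with 11 higher and 6 lower in HT, 0 with an adjusted p under 0.05 and 2 (11.8%, against 3.41% of all genes tested) with an unadjusted p under 0.05, *Dynlt1b* (0.45) and *Tmem181b-ps* (0.49), neighbours of each other 1082 and 1091 kb downstream of *Arid1b*. Without HT 4 the count was 5 of 17, in a fit where 8.38% of all genes tested had an unadjusted p under 0.05. With sample weights it was also 5 of 17, where 1280 of all 17020 genes tested had one. *Dynlt1b* alone did not overlap between groups, where 0.629% of all genes tested did not. Its limma p was 8.04e-05 (adjusted p 0.684), and its exact permutation p was 0.00794, the smallest possible. With a trend on length and GC content removed its adjusted p was 0.0417, and 2 of all genes tested passed there, *Dynlt1b* and *Arid1b*. *Tmem181b-ps* had a limma p of 0.00222 and an exact permutation p of 0.0238. *Dynlt1b* and *Tmem181b-ps* lie between *Serac1* and *Ezr*, whose log2 fold changes were -0.093 and -0.089. Genes of related name within the same stretch had log2 fold changes of 0.076 (*Dynlt1a*), -0.0039 (*Dynlt1c*), -0.033 (*Dynlt1f*), 0.11 (*Tmem181a*) and 0.24 (*Tmem181c-ps*). Transcript words shared among these related genes were not examined. The tested genes nearest to *Arid1b* besides the 10 were *Gtf2h5* (0.038) and *Tulp4* (-0.084) downstream and *Gm49797* (-0.055) and *Gm6475* (0.16) upstream, each with an adjusted p of 1.00.

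Paralogs on other chromosomes gave a comparison outside the region. Of 19 listed paralogs, 19 were tested, with a median log2 fold change of -0.026, 9 higher and 10 lower in HT, and 0 with an adjusted p under 0.05. *Tfb2m*, the paralog of *Tfb1m* that starts mitochondrial transcription, was the 1 paralog with an unadjusted limma p under 0.05 (0.0493, 5.26% of the paralogs against 3.41% of all genes tested). It averaged 668 ± 74.2 in HT against 744 ± 25.6 normalised read counts in WT libraries (SD, n = 5 each), which gave a log2 fold change of -0.16, where *Tfb1m* had 0.27. For the other members the most abundant paralogs were *Scaf4* (-0.068), *Tiam1* (-0.072), *Cldn5* (-0.026), *Zdhhc9* (0.0034), *Snx18* (0.019), *Synj1* (0.027) and *Nf2* (-0.053). *Rdx* and *Msn*, the other ezrin relatives, had log2 fold changes of -0.074 and -0.12, next to -0.089 for *Ezr*.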

How the data were processed

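Poly-A mRNA libraries of 10 whole brains were sequenced as paired-end reads. Per the labels and the study's methods, the authors quantified reads with Salmon 1.1.0 on GRCm38 with GC-bias correction, imported gene-level estimates with tximport and divided them by DESeq2 1.30.1 size factors. The deposited signal is this normalised read count. It is not a whole count (0.500% of values were within 0.001 of a whole number), so count models were not run. Neither the annotation release nor how low genes were filtered is given in the sources used here.

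Values were analysed as log2(value + 1), which understates changes of low genes, for 17020 genes with a mean of at least 10, in R 4.3.3 with limma 3.58.1 (trend, robust, two-sided, Benjamini-Hochberg over all genes, threshold 0.05). Single genes were also compared by a two-sided exact permutation test over 252 assignments. Errors are between mice, and counting error was not modelled separately. Totals per library were 27.2 M to 29.0 M. Of 18444 identifiers, 18431 matched GENCODE M21, on the same build. Alternatives changed the pseudocount, the filter, the scaling, the weights, a trend on length and GC, a replicate block and each library. The fit was tested on simulated data, in which libraries varied independently with a spread taken from the WT libraries. No library like HT 4 was simulated, so that this does not show how the fit performs with HT 4.

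The members, gene lists and tests were chosen with earlier results of these data known. Named are the 10 genes, *Arid1b*, genes within 2 Mb or paralogs with an unadjusted p under 0.05 or no overlap, the nearest tested genes, the most abundant paralogs, and the genes most like the 2 members with the smallest p.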

Additional observations from a re-analysis of the deposited data

Results flagged for a closer look

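In each group of 5 libraries, the distance from an extreme library to the next one was divided by the range of the group, and shares above 0.71 are given. Of 22 groups checked (10 flanking genes and *Arid1b*, in HT and in WT), 4 met this. A rate of 1 in 20, which holds for libraries of like spread, would give about 1.1. HT 4, the library of *Tmem242* and *Arid1b* below, stood at one end of the 10 libraries for 52.2% of all genes tested. The share of all genes that meet this rule was not counted, so that 4 cannot be read as an excess in these genes. In HT, *Tfb1m* was highest in HT 5 (161 normalised read counts against 125 to 133 in the others, a share of 0.758), and *Tmem242* was highest in HT 4 (915 against 683 to 737, 0.767). *Arid1b* was lowest in HT 4 (1505 against 2142 to 2372, 0.735). In WT, *Ezr* was highest in WT 4 (1254 against 1127 to 1160, 0.738).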

How the results depend on the processing

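For the 10 flanking genes, 196 of 209 values under 21 alternatives kept their direction and stayed above the adjusted threshold, and 13 changed direction without passing it. These were *Scaf8* (0.0047 with sample weights, 0.024 with the length and GC trend removed and HT 4 left out, -0.10 to 0.032 over the fits without 1 library), *Tmem242* (-0.015 with sample weights, -0.031 to 0.074 without 1 library), *Serac1* (0.010 with sample weights, 0.060 with the trend removed and HT 4 left out, -0.16 to 0.060 without 1 library) and *Snx9* (-0.00021 with equal library totals, -0.027 to 0.053 without 1 library). The median of the 10 genes ran from 0.015 (without HT 2) to 0.051 (without HT 5) over the fits without 1 library, and was 0.0080 with sample weights and 0.0063 over the 9 genes with a mean of at least 100. An unadjusted limma p under 0.05 was found for 2 of the 10 with quantile normalisation (575 of 17020 over all genes) and 2 with sample weights (1280 of 17020). With the trend removed and HT 4 left out it was 2 (1352 of 17015). It was 1 with a replicate block (558 of 17020), without HT 4 (1426 of 17015), without WT 1 (504 of 17004) and without WT 5 (704 of 17015). No alternative called any of the 10 genes at the adjusted threshold. Over all genes, 2 passed with sample weights, 2 with the trend removed, 2 with the trend removed and HT 4 left out, and 0 to 2 without 1 library (2 without HT 4). Of the other genes within 2 Mb, 1 (*Dynlt1b*, adjusted p 0.0417) passed with the trend removed. *Arid1b* passed at -0.60 with sample weights, -0.66 with the trend removed and -0.61 with HT 4 left out as well, and ran from -0.73 (without HT 1) to -0.57 (without HT 4, where it passed). The cause of these shifts was not tested.

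Replicate numbers are shared by HT and WT, but same-numbered libraries had correlations of deviations from -0.10 to 0.093, none above 0.1, so that the numbers were not taken as pairs. As a hint from the data in the other direction, 4 of 5 HT libraries correlated best with their own number. With a replicate block, 0 of 10 flanking genes and 0 of all genes passed, *Arid1b* was at -0.68, and 558 genes had an unadjusted p under 0.05 against 580 without it. *Cldn20*, at a mean of 13.1 normalised read counts, has no value with a minimum mean of 100.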

Other observations

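The 2 flanking genes with the smallest limma p were set beside the genes whose log2 values ran most like theirs over the 10 libraries, as a description. For *Zdhhc14* these were *Kctd8* on chromosome 5 (Pearson r 0.92, 10 libraries; means 452 ± 29.5 for HT and 383 ± 28.0 normalised read counts for WT, SD, n = 5 each), the transcript *Gm30122* on chromosome 10 (0.88) and *Slc17a6* on chromosome 7 (0.88), which encodes a vesicular glutamate transporter. *Slc17a6* averaged 4694 ± 189 for HT and 4236 ± 70.7 for WT (SD, n = 5 each). For *Tfb1m* they were *Ctxn3* (0.92), *2010204K13Rik* (0.92) and *Dscam*, a neuronal adhesion molecule on chromosome 16 (0.91; means 3312 ± 272 for HT and 3064 ± 278 for WT, SD, n = 5 each). None of these 6 genes lies on chromosome 17. They were picked from 17020 genes for this likeness, and no test was made.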
